A study of Mus musculus with 4 samples.

Results

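Myc and the DNA that regulates it were examined for H3K27ac, the acetylation of histone H3 lysine 27 that marks active promoters and enhancers, in erythroid progenitor cells without GATA1 and in a subline with restored GATA1 activity. The members were all H3K27ac peaks that overlapped chromosome 15 from 61.7 to 63.65 Mb of mm9, a window of 1950 kb whose limits are positions and use no peak's value, though it was proposed with earlier results of these data known. It takes in Myc, the long noncoding RNA gene Pvt1 and, far downstream, a region known for enhancers that act in blood cells. The 6 peak lists held 156 such peaks of 151551 in all. There were 28 in G1E replicate 1, 28 in G1E replicate 2, 27 in G1E-ER4+E2 replicate 1 and 19 in G1E-ER4+E2 replicate 2. The list pooled over both replicates had 25 for G1E and 29 for G1E-ER4+E2.

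Both groups are mouse cells of strain 129. G1E cells are an immortalized model of erythroid progenitors grown from Gata1 knockout ES cells, and they were not treated. G1E-ER4 cells were made from that line with a virus carrying GATA1-ER, a GATA1 protein that needs hormone to act, and they were given 10 nM estradiol (E2) for 24 h, so both groups lack the endogenous Gata1. Each group had 2 replicates, and the labels do not say whether these came from separate cultures, so the spread between them may be technical. Untreated G1E-ER4 cells were not analysed here, and GATA1 activity, the subline and estradiol cannot be told apart in this comparison. The lists hold no expression values, so the cell type was not checked against marker genes.

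MYC is a transcription factor that drives growth and division, and its level is kept high in dividing progenitors and declines as erythroid cells mature. Myc is controlled from enhancers spread over very long distances on its downstream side. Those in and around Pvt1 are close to the gene, and a cluster in the far downstream region is used by blood stem and progenitor cells. In the GRCm38 gene table Pvt1 follows Myc directly, and none of the 16 genes listed between Myc and the next protein-coding gene, Gsdmc, encodes a protein. An mm9 gene annotation was not used here. That Myc lies in the bin from 61.8 to 61.9 Mb, that Pvt1 begins in the same bin and runs on beyond it, and that the enhancers used in blood cells lie from 63.4 to 63.65 Mb is background knowledge of mm9 and not read from the files. These parts are called the Myc bin, the Pvt1 stretch (61.9 to 62.1 Mb) and the far downstream stretch. The promoters of Myc and Pvt1 are missing from the RefSeq promoter table, so their sequences are not shown.

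Each peak has an enrichment, the fold over its background that the authors' peak caller gave it. The median enrichment of a whole list was 6.69 and 7.76 in the G1E replicates and 2.98 and 3.59 in the G1E-ER4+E2 replicates, and the length in peaks was 126 Mb and 113 Mb in G1E against 163 Mb and 161 Mb in G1E-ER4+E2. Enrichments are therefore given with their percentile, the percent of peaks in the same list with a lower enrichment. How many reads lie behind each list is not known, so intervals that need the depth were not computed.

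H3K27ac covered less of the window in G1E-ER4+E2 cells than in G1E cells, although the lists as a whole covered more of the genome. Peaks covered 239 kb and 213 kb of the window in the G1E replicates. In the G1E-ER4+E2 replicates they covered 110.6 kb and 89.0 kb. The groups did not overlap, with means of 226 kb ± 18.4 and 99.8 kb ± 15.3 (SD, n = 2 each) and a change of -55.8%. A two-sided exact permutation test gave p = 0.333 (n = 2 per group), the smallest p that 2 against 2 samples allow, so no single value compared in this way can pass 0.05. As a share of all DNA in peaks, the window held 0.189% and 0.188% in G1E and 0.0679% and 0.0554% in G1E-ER4+E2.

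**Figure D1:**
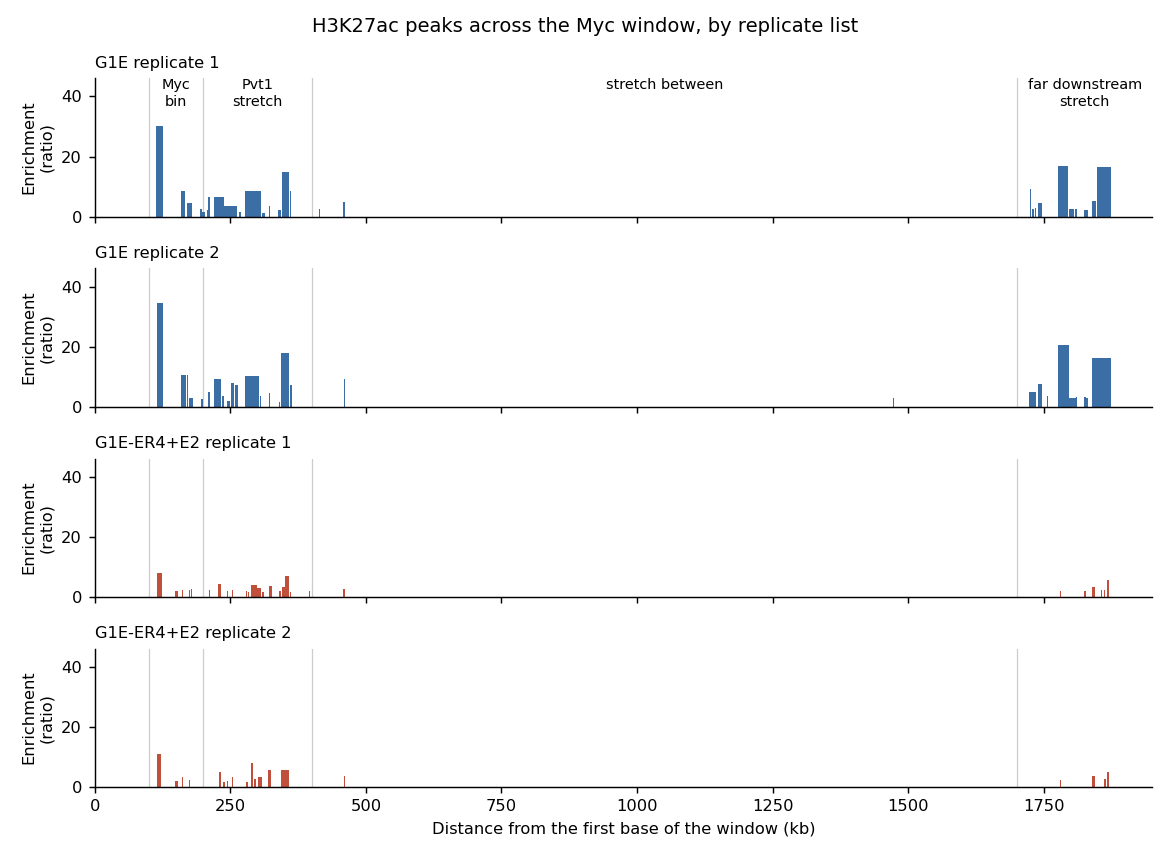
Peaks of the 4 replicate lists across the window; x, distance from the first base of the window in kb; y, enrichment as a linear ratio; each bar is 1 peak drawn to its width, blue for G1E and red for G1E-ER4+E2, and grey lines divide the stretches. Peaks lie at both ends of the window, the highest reaches 30.2 and 34.4 in G1E and 7.95 and 10.8 in G1E-ER4+E2, and the scale of the enrichment differs between the lists as a whole.

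The peaks lay at both ends of the window. No list had a peak in the first 100 kb, before Myc. Between Pvt1 and the far downstream stretch, from 62.1 to 63.4 Mb, the replicate lists covered 5.80 kb and 4.20 kb in G1E and 3.0 kb and 1.8 kb in G1E-ER4+E2. The longest run without a peak was 1262.2 kb and 1010.4 kb in the G1E replicates and 1317.6 kb and 1317.4 kb in the G1E-ER4+E2 replicates. Of the 20 bins of 100 kb, 13 or 14 had no peak in any given replicate list, and 7 had a peak in at least 1 of them.

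The length in peaks was compared in all 10407 bins of the genome that held a peak, with limma on log2(covered bp + 1000), so that a difference is on that scale and understates the change of sparsely covered bins. H3K27ac fell in 4 of the 7 bins of the window and rose in none, at an adjusted p under 0.05 over all bins. Over the genome 21.6% of the bins were called lower and 30.4% higher, and the median difference was 0.20. Scaled to equal total covered length of the lists, the median over all bins was -0.16 and 42.9% of the calls were higher, against 58.5% unscaled, and the same 4 bins of the window were called lower, as were 30.6% of all bins. The replicates did not overlap in the same 4 bins, all lower in G1E-ER4+E2, a pattern found in 31.1% of all bins, while 44.3% were higher without overlap. The bins that fell were the Myc bin, the first Pvt1 bin and both far downstream bins. Their log2 differences stayed negative with any 1 library left out, but not every call held. The next paragraphs take the bins in order from Myc outward.

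**Figure D2:**
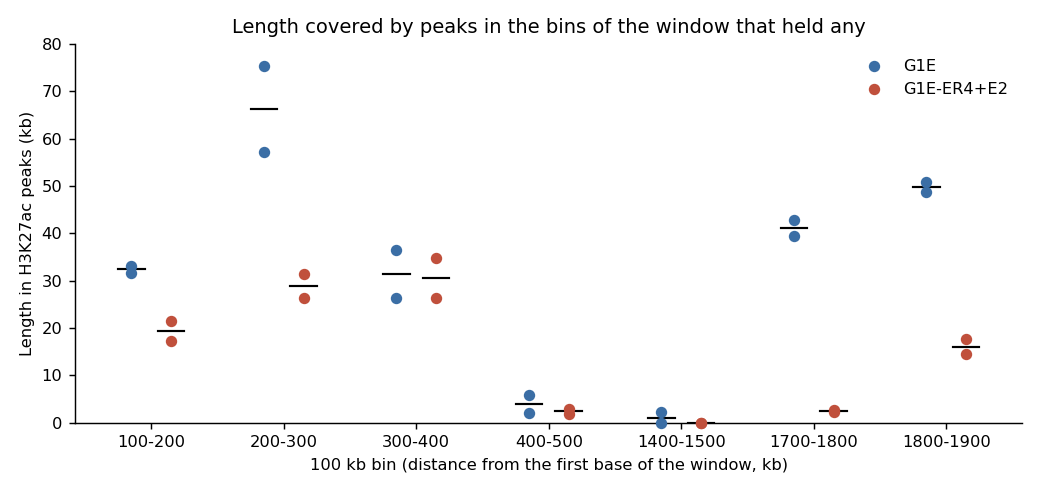
Length in H3K27ac peaks (y, kb) in each 100 kb bin of the window that held a peak in a replicate list (x, distance from the first base of the window, kb); points are replicates and black lines the means of 2. The bins starting 1700 and 1800 kb into the window show G1E replicates from 39.4 to 50.8 kb and G1E-ER4+E2 replicates from 2.20 to 17.6 kb, and the bin starting at 300 kb shows overlapping groups.

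In the Myc bin, peaks covered 33.2 kb and 31.6 kb in G1E and 21.6 kb and 17.2 kb in G1E-ER4+E2. Both treated replicates were lower than both untreated ones, and the log2 difference was -0.72 ± 0.15 (SE, limma adjusted p = 0.0347). More negative differences were found in 24.4% of all bins. The difference was -1.14 when scaled to equal total covered length and -1.16 with peaks at or above the median enrichment of their list. With covered length times enrichment it was -2.26. Under these alternatives 21.9%, 14.6% and 20.8% of all bins were more negative. The call was lost on leaving out any 1 library, with limma adjusted p of 0.184 and 0.175 without G1E replicate 1 and 2 and 0.0509 and 0.0752 without G1E-ER4+E2 replicate 1 and 2. The log2 difference stayed between -0.88 and -0.56 in these fits. No other part of the window held a peak as highly enriched as the one near the start of this bin, which spans 61813401 to 61826000 over the replicate lists. Its enrichment was 30.2 in G1E replicate 1 and 34.4 in replicate 2, at percentiles 98.7 and 98.5. In G1E-ER4+E2 it was 7.95 and 10.8, at percentiles 87.7 and 89.1. The peak was thus in the top 5% of both G1E lists and of neither G1E-ER4+E2 list. It remained a single peak throughout, 12.4 kb and 11.0 kb wide in G1E and 9.40 kb and 8.00 kb wide in G1E-ER4+E2.

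Downstream in the Myc bin, the region from 61859401 to 61867800 had a peak in every list. It was 7.40 kb and 8.20 kb wide in G1E, at percentiles 59.4 and 61.7, and 3.20 kb and 1.2 kb wide in G1E-ER4+E2, at percentiles 23.6 and 46.8. The groups did not overlap in width or in percentile. From 61869801 to 61880600, peaks covered 9.0 kb in each G1E replicate and 4.20 kb and 1.8 kb in G1E-ER4+E2, while the percentiles overlapped, at 36.0 and 61.6 against 41.2 and 13.6. At the end of the bin, the region from 61894801 to 61904400 was present in both G1E replicates, with 8.80 kb and 3.40 kb covered at low percentiles of 16.9 and 11.5, and absent from both G1E-ER4+E2 replicates.

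One region of the window had peaks in both G1E-ER4+E2 replicates and in neither G1E replicate. From 61848001 to 61854200, in the Myc bin, peaks of 4.80 kb and 6.20 kb were found in the G1E-ER4+E2 replicates and none in G1E. Their enrichments were low, 1.90 and 2.0, at percentiles 12.6 and 10.0. Over all 32748 regions made by merging the peaks of the 4 replicate lists, 22.3% were in both G1E-ER4+E2 replicates and neither G1E replicate, and this was 1 of the 24 regions of the window.

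Within the Pvt1 stretch the marked length was lower in its first bin and overlapped between the groups in its second. From 61.9 to 62.0 Mb, peaks covered 75.4 kb and 57.2 kb in G1E and 31.4 kb and 26.4 kb in G1E-ER4+E2. The log2 difference was -1.16 ± 0.19 (SE, limma adjusted p = 0.0232), and 17.7% of all bins had a more negative one. This call too was lost on leaving out any 1 library, with limma adjusted p of 0.0964 and 0.0738 without G1E replicate 1 and 2 and 0.129 and 0.162 without G1E-ER4+E2 replicate 1 and 2. The log2 difference stayed between -1.36 and -0.97 in these fits. With only peaks at or above the median enrichment of their list it was -1.15 (limma adjusted p = 0.181). In G1E this bin ranked above 99.5% and 99% of all bins in length covered. In G1E-ER4+E2 it ranked above 81.6% and 77.4%. From 62.0 to 62.1 Mb the values were 36.4 kb and 26.4 kb in G1E and 34.8 kb and 26.4 kb in G1E-ER4+E2, and no difference was detected (-0.03 ± 0.25, limma adjusted p = 0.923). Leaving out G1E replicate 1 or G1E-ER4+E2 replicate 2 turned this difference to 0.19 or 0.16. With covered length times enrichment it was -1.29 (limma adjusted p = 0.00404). That measure was lower over the genome too, with a median of -0.61, and 33.8% of all bins had a more negative difference. In this bin the direction of the covered length depended on the lists. The pooled lists covered 33.6 kb in G1E and 48.6 kb in G1E-ER4+E2.

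In the Pvt1 stretch, 2 wide regions had less length in peaks in G1E-ER4+E2 than in G1E. The most enriched peak of each had a higher rank within its list. Whatever their length, 41.6% of all regions had a higher rank in both G1E-ER4+E2 replicates. The region from 61920801 to 61963400 was covered over 40.6 kb and 31.2 kb in G1E and over 12.4 kb and 14.0 kb in G1E-ER4+E2. Its highest percentile was 49.1 and 56.1 in G1E and 67.2 and 65.1 in G1E-ER4+E2. The region from 61977801 to 62014800 had widest peaks of 28.2 kb and 25.4 kb in G1E, with highest percentiles of 59.4 and 60.0. It held 2 peaks in each G1E replicate and 5 and 4 peaks in the G1E-ER4+E2 replicates, the widest there 11.6 kb and 7.20 kb, with highest percentiles of 64.7 and 79.7. In both regions the groups did not overlap, with covered lengths lower and highest percentiles higher in G1E-ER4+E2. The other peaks there ranked lower. In the first region the lowest percentiles were 9.65 and 0.942 in the G1E-ER4+E2 replicates and 29.3 and 2.86 in the G1E replicates. In the second they were 3.04 and 2.28 in G1E-ER4+E2 and 0.404 and 21.3 in G1E.

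Farther along Pvt1, the region from 62019801 to 62026800 was wider in G1E-ER4+E2, with peaks of 5.60 kb and 4.80 kb against 2.20 kb and 2.40 kb in G1E. Its percentile was 62.3 and 68.8 against 28.6 and 30.8, so the groups did not overlap in either measure. The region from 62038001 to 62057800 was in all lists, with 19 kb and 16.4 kb covered in G1E and 15.8 kb and 14.4 kb in G1E-ER4+E2. It had the highest percentiles of the stretch in G1E, 83.3 and 83.6, and stood at 83.6 and 68.5 in G1E-ER4+E2. Next to it, the region from 62060401 to 62063600 was at percentiles 59.2 and 47.8 in G1E, at 7.01 in G1E-ER4+E2 replicate 1 and without a peak in replicate 2. The region from 61909401 to 61913400 was likewise in 3 lists, at percentiles 49.4 and 35.1 in G1E and 29.9 in G1E-ER4+E2 replicate 1. The other 3 regions of the stretch were each in a single replicate list. Those from 61907001 to 61908600 and from 61965801 to 61969400 were in G1E replicate 1, with enrichments of 2.32 and 1.65 at percentiles 11.9 and 2.39. The one from 62094801 to 62097000 was in G1E-ER4+E2 replicate 1, with an enrichment of 1.76 at percentile 8.02.

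Beyond Pvt1, the region from 62158201 to 62161600 was in all lists and overlapped between the groups, at percentiles 38.8 and 56.3 in G1E and 40.4 and 51.1 in G1E-ER4+E2. Its bin covered 5.80 kb and 2.0 kb in G1E and 3.0 kb and 1.8 kb in G1E-ER4+E2, with no difference detected (-0.43 ± 0.53, limma adjusted p = 0.527). With covered length times enrichment the difference was -1.38 (limma adjusted p = 0.00605). The median of that measure over all bins was -0.61, and 31.9% of all bins were more negative than this one. Without G1E replicate 1 the difference in covered length was 0.16. The only peak of a replicate list between it and the far downstream stretch, named after its values were seen, was one of 2.2 kb in G1E replicate 2 that begins at 63172001, in a bin where no difference was detected either (-0.84 ± 0.69, limma adjusted p = 0.374). Without G1E replicate 1 its difference was -1.68, and the fit then had no spread between replicates to estimate in this bin, since both G1E-ER4+E2 replicates were at 0 kb, so it is given as a value with no test.

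In the far downstream stretch, peaks covered 4.91 times as much DNA in G1E as in G1E-ER4+E2 on average. Peaks covered 88.2 kb and 93.6 kb of it in G1E and 19.8 kb and 17.2 kb in G1E-ER4+E2. The means were 90.9 kb ± 3.82 and 18.5 kb ± 1.84 (SD, n = 2 each). The pooled lists covered 102.4 kb of it in G1E and 26.6 kb in G1E-ER4+E2, a smaller ratio. The ratio of the replicate means was 1.67 in the Myc bin and 1.64 in the Pvt1 stretch. The Pvt1 difference of -38.2 kb was -24.1 kb without G1E replicate 1 and -16.6 kb with the pooled lists, which covered 112.4 kb in G1E and 95.8 kb in G1E-ER4+E2. For each of these stretches, as for the one between, the two-sided exact permutation p was 0.333 (adjusted over the 5 stretches, 0.417), which is the lowest p 2 against 2 samples can give. The far downstream stretch made up 36.9% and 43.9% of the covered length of the window in G1E and 17.9% and 19.3% in G1E-ER4+E2. These shares did not overlap (exact permutation p = 0.333, n = 2 per group), and this comparison was chosen after the values were seen.

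In the bin from 63.4 to 63.5 Mb, peaks covered 39.4 kb and 42.8 kb in G1E and 2.20 kb and 2.60 kb in G1E-ER4+E2. The log2 difference was -3.63 ± 0.12 (SE, limma adjusted p = 0.00192), and 1.2% of all bins had a more negative one. This rank depends on the processing, and over the alternatives run it went from 0.183% with a pseudocount of 5000 bp to 7.66% with one of 200 bp. The bin passed with any 1 library left out, at limma adjusted p from 0.0185 to 0.0226. The bin ranked above 93.3% and 96.7% of all bins in the G1E replicates and above 30.3% and 32.3% in the G1E-ER4+E2 replicates. In the bin from 63.5 to 63.6 Mb the values were 48.8 kb and 50.8 kb in G1E and 17.6 kb and 14.6 kb in G1E-ER4+E2, a difference of -1.58 ± 0.12 (SE, limma adjusted p = 0.00544). It missed the threshold without G1E replicate 1 (limma adjusted p = 0.0604) or G1E replicate 2 (limma adjusted p = 0.0684), where the log2 difference was -1.60 and -1.55. More negative differences were found in 13.3% of all bins, and in 3.42% and 19.4% with these pseudocounts. No peak lay from 63.6 Mb to the end of the window in any list.

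**Figure D3:**
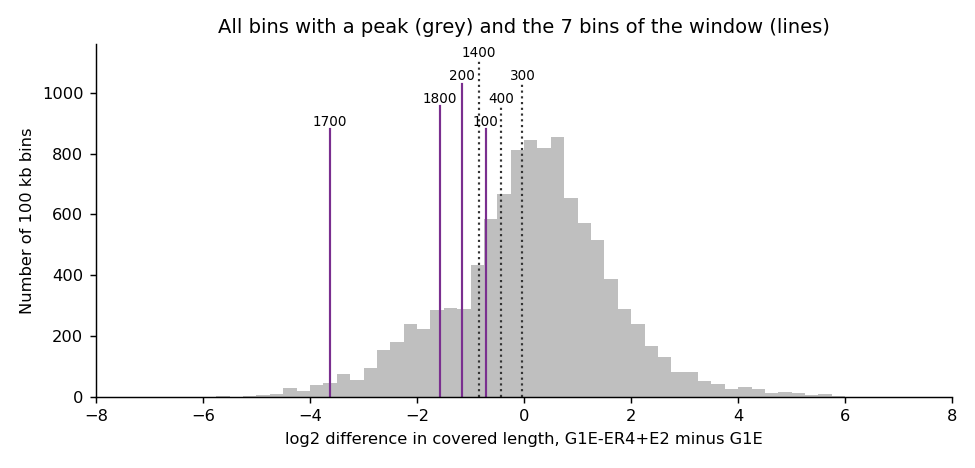
Number of 100 kb bins (y) by the log2 difference in covered length, G1E-ER4+E2 minus G1E (x), for all 10407 bins with a peak, in grey. Lines mark the 7 bins of the window, labelled by their distance in kb from its first base, solid where the adjusted p was under 0.05 and dotted where not; the bin labelled 1700 stands at -3.63, and all 7 lie at or below -0.03.

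Region by region, the far downstream stretch held regions without any peak in G1E-ER4+E2 and regions with smaller ones. Both regions nearest to Myc, from 63423201 to 63436200 and from 63439401 to 63447200, were present in both G1E replicates and absent from both G1E-ER4+E2 replicates. The first was covered over 9.0 kb and 12.6 kb in G1E, at percentiles 62.3 and 33.9, and the second over 7.80 kb and 6.80 kb, at percentiles 36.6 and 48.6. The region from 63495601 to 63511200 followed the same pattern, with 13.0 kb and 13.8 kb covered at percentiles 16.3 and 18.3. With the region at the end of the Myc bin, 4 of the 24 regions of the window were in both G1E replicates and neither G1E-ER4+E2 replicate. This share is close to the 13.6% found over all regions. A further region, from 63455801 to 63457000, was in G1E replicate 2 alone, at percentile 23.8.

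The region from 63476401 to 63495400 had the highest percentiles of the stretch in G1E. Its peak was 18.2 kb and 18.8 kb wide in G1E, with enrichments of 16.8 and 20.7 at percentiles 87.7 and 88.9. In G1E-ER4+E2 the peak there was 2.2 kb and 2.6 kb wide, with enrichments of 1.99 and 2.19 at percentiles 16.0 and 15.1. No other region found in all 4 replicate lists had a larger difference in percentile between the groups.

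The widest peak of the pooled G1E list in the window lay from 63537201 to 63574200, at 37.0 kb wider than 99.3% of that list. In the replicates it was 35.0 kb in G1E replicate 2, and replicate 1 had a peak of 26.6 kb and one of 7.20 kb there. The G1E-ER4+E2 replicates had 4 and 3 separate peaks over the same region, none wider than 5.80 kb, which together covered 14.4 kb and 14.6 kb. The highest percentile was 87.1 and 79.2 in G1E and 77.4 and 63.0 in G1E-ER4+E2. The G1E replicates had 33.8 kb and 35.0 kb in peaks over that region, so the groups did not overlap in covered length or in percentile. The remaining region, from 63524201 to 63530800, was at percentiles 12.1 and 19.7 in G1E and at 14.8 in G1E-ER4+E2 replicate 1, and was absent from replicate 2.

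**Figure D4:**
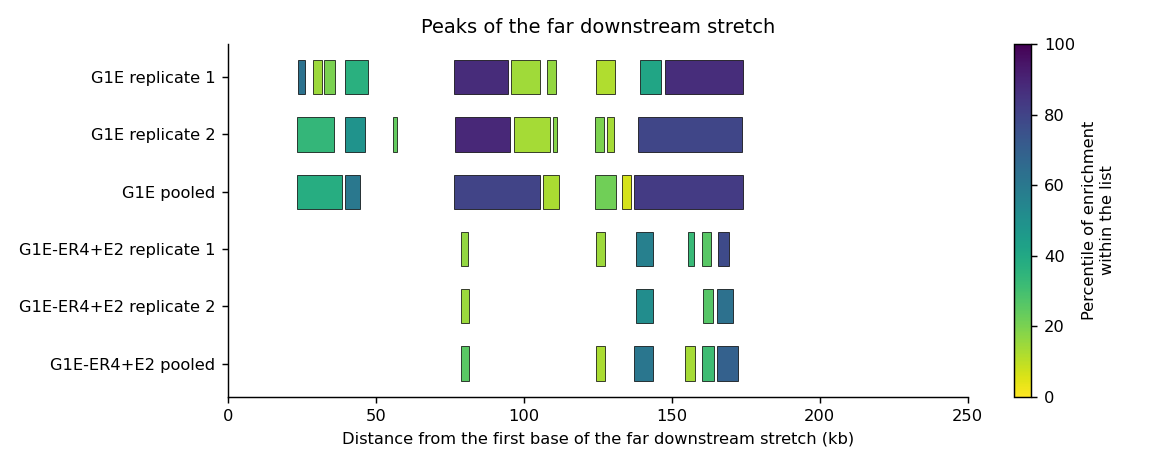
Peaks of the far downstream stretch in the 4 replicate and 2 pooled lists (rows); x, distance from the first base of the stretch in kb; each box is 1 peak drawn to its width, coloured by the percentile of its enrichment within its list. G1E has peaks up to 26.6 kb and 35.0 kb wide in the replicates, and G1E-ER4+E2 has none over 5.80 kb in its replicates or 7.0 kb in its pooled list.

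The overlap was also counted in tiles of 200 bp. Of 83.0 kb of the far downstream stretch that lay in peaks of both G1E replicates, 62.2 kb (74.9%) was in no G1E-ER4+E2 peak and 12.8 kb (15.4%) was in peaks of both. For the Pvt1 stretch, 28.2% of 79.4 kb was in no G1E-ER4+E2 peak and 48.6% was in both. For the Myc bin these shares were 43.2% and 37.4% of 27.8 kb. Over the genome, 24.0% of the DNA in peaks of both G1E replicates was in no G1E-ER4+E2 peak and 67.0% was in both. In the opposite direction, 6.80 kb of the window was in both G1E-ER4+E2 replicates and neither G1E replicate, 9.29% of its DNA in both G1E-ER4+E2 replicates, against 39.9% over the genome. No test was made of these shares, since neighbouring tiles are not independent.

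Across the 24 regions, the covered length was lower in both G1E-ER4+E2 replicates than in both G1E replicates for 14 (24.4% of all regions) and higher for 2 (39.0%). The percentile was lower without overlap for 10, of which 5 were in the far downstream stretch (23.2% of all regions), and higher for 4 (41.6%), of which 3 were in the Pvt1 stretch. An absent peak counts as lower than any peak in these counts, and the percentile is that of the most enriched peak of a region.

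**Figure D5:**
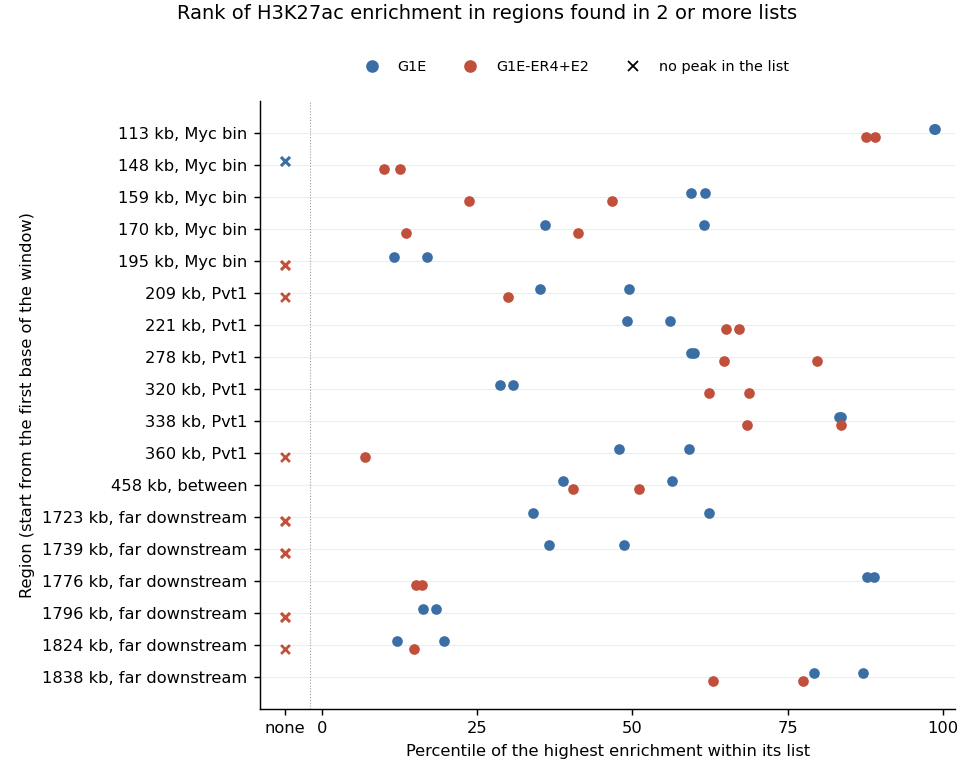
Percentile of the highest enrichment within its list (x) for the 18 regions of the window found in 2 or more replicate lists (rows, labelled by their start in kb from the first base of the window); dots are replicates, blue for G1E and red for G1E-ER4+E2, and crosses mark replicates without a peak. The top row, in the Myc bin, has the highest percentiles in G1E (98.7 and 98.5), and among the rows with a peak in every list the one at 1776 kb has the widest separation, from 87.7 and 88.9 to 16.0 and 15.1.

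In the pooled lists, 9 of the 25 G1E peaks of the window (36.0%) overlapped no G1E-ER4+E2 peak by 1 bp or more, against 29.7% of all pooled G1E peaks. The widest G1E peaks of the far downstream stretch did overlap one, but G1E-ER4+E2 peaks covered 8.90% of the peak of 29.2 kb that begins at 63476401 and 56.2% of the peak of 37.0 kb. For the peak of the Myc bin that begins at 61814001 the share was 80%. For the Pvt1 peak of 28.4 kb that begins at 61977801 it was 83.8%, and for the one that begins at 62038201 it was 91.8%. In G1E-ER4+E2 the highest peak of the Pvt1 stretch was the one that begins at 61986801, with an enrichment of 5.54 at percentile 78.9. The widest was the one of 18 kb that begins at 62039801. Between Pvt1 and the far downstream stretch, the pooled G1E-ER4+E2 list had a peak of 4.2 kb that begins at 62206001, where no replicate list had one. Of the 29 pooled G1E-ER4+E2 peaks, 5 (17.2%) overlapped no G1E peak, against 40.3% of all such peaks.

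The nearest peaks outside the window lay far from its edges. Before it, the nearest was 2219.6 kb and 859.6 kb away in the G1E replicates and 1858.0 kb and 1856.4 kb away in the G1E-ER4+E2 replicates. After it, the nearest began 176.8 kb, 177.0 kb, 139.2 kb and 150.2 kb beyond the end, at percentiles 69.4 and 61.4 in G1E and 12 and 38.7 in G1E-ER4+E2.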

How the data were processed

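H3K27ac ChIP-seq peaks were analysed for 2 replicates of G1E and 2 of G1E-ER4+E2. The authors deposited broad peaks for each replicate and for each group pooled (how is not given in the sources used here), and the submitters' notes name bcl2fastq 1.8.4, Bowtie 1.0.0, SICER 1.1 and mm9. The control is not given in the sources used here. The deposited values are an enrichment (a linear ratio) and p-values and q-values, with every q at most 0.01, and starts and ends on multiples of 200 bp. A peak's width and q depend on sequencing depth, which is unknown. The lists were also scaled to equal total covered length, with factors of 1.11 and 1.24 for G1E and 0.86 and 0.88 for G1E-ER4+E2. This scaling cannot restore peaks that were not called for lack of depth, so it does not correct for depth.

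Covered length was computed for the window, 5 stretches and 100 kb bins of chromosomes 1 to 19 and X. Bins with a peak in any replicate list were fitted with limma (eBayes with trend, pseudocount 1000 bp, Benjamini-Hochberg over all bins), single values with exact permutation tests. Gene order came from the GRCm38.p6 RefSeq table, and no coordinate was taken from it or converted. Peaks of the 4 replicate lists that overlapped or touched were merged into regions. The fit was also run on simulated data in which few bins changed, unlike in these data, so that run does not vouch for the calls given here. The regions named were all those of the stretches up to the end of the Pvt1 stretch and of the far downstream stretch, those in at least 3 of the 4 replicate lists and those in both replicates of only 1 group. The limits of the stretches are round positions from knowledge of the locus. The share of the window held by the far downstream stretch was added after the data were seen. The window, the stretches and the alternatives were chosen with earlier results of these data known. Software was Python 3.11.15, pandas 2.3.3, NumPy 2.4.6, SciPy 1.17.1, Matplotlib 3.10.9, R 4.3.3 and limma 3.58.1.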

Additional observations from a re-analysis of the deposited data

How the results depend on the processing

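The mean covered length of the window and of each stretch with peaks was lower in G1E-ER4+E2 under every alternative run. With the pooled lists, which give no test, the difference was -106.2 kb for the window, -16.6 kb for the Pvt1 stretch, -0.800 kb for the stretch between and -75.8 kb for the far downstream stretch. Leaving out 1 replicate gave -139.2 to -113.2 kb, -52.3 to -24.1 kb, -3.40 to -1.80 kb and -75.1 to -69.7 kb for these, and -15.2 to -10.8 kb for the Myc bin. The difference in the share held by the far downstream stretch was then -25.3 to -18.3 percentage points. With peaks at or above the median enrichment of their list the differences were -70.5 kb for the window, -18.2 kb for the Pvt1 stretch, -0.1 kb for the stretch between (exact permutation p = 1, n = 2 per group) and -40.2 kb for the far downstream stretch. With q at or below 1e-10 the stretch between was at -1.4 kb. The differences scaled to equal total covered length were -62.6 kb for the Pvt1 stretch and -21.3 kb for the Myc bin.

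With 1 replicate left out, where the lone sample is assumed to vary like the others, limma called 1 to 2 bins of the window lower: 2 without G1E replicate 1, 1 without G1E replicate 2, 2 without G1E-ER4+E2 replicate 1 and 2 without G1E-ER4+E2 replicate 2, where 20.8%, 17.4%, 11.1% and 11.0% of all bins were called lower. The bin from 63.4 Mb was called each time. The other called without G1E replicate 1 was that from 63.1 Mb, where the fit had no spread to estimate and the call is void, and without either G1E-ER4+E2 replicate that from 63.5 Mb. The first Pvt1 bin was also lost with peaks at or above the median enrichment of their list (limma adjusted p = 0.181). The log2 difference of the second Pvt1 bin ranged from -0.26 to 0.19 with 1 replicate left out (0.19 without G1E replicate 1, 0.16 without G1E-ER4+E2 replicate 2), and that of the bin from 62.1 Mb from -1.02 to 0.16 (0.16 without G1E replicate 1). With covered length times enrichment 6 bins of the window were called lower, against 42.3% of all bins. With the replicate number as a block 4 bins of the window and 4682 of all bins were called, against 5408 without it. Deviations of same-numbered replicates had a correlation of 0.122 over 10407 bins. There are only 2 such pairs, and the labels do not say whether they share more than a number. Of all bins, 4043 were called in either direction without G1E replicate 1, 3398 without G1E replicate 2, 2849 without G1E-ER4+E2 replicate 1 and 2748 without G1E-ER4+E2 replicate 2. Scaling to equal total covered length moved the median of all bins from 0.20 to -0.16 and the share of calls that were higher from 58.5% to 42.9%, with 4 bins of the window called lower. That share was 29.2% with covered length times enrichment, 74.0% with bins of at least 5000 bp mean covered length, and 46.5% and 46.7% without G1E replicate 1 and 2.

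With peaks at or above the median enrichment of their list, 5 of 11 pooled G1E peaks of the window (45.5%, against 24.7% of all such peaks) and 1 of 8 pooled G1E-ER4+E2 peaks (12.5%, against 29.8%) lacked a counterpart. Depth is unknown, and 2 replicates a group limit every test.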
